A study of Mus musculus with 24 samples.

Results

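The transcriptional response of cultured adipocytes to the PPARδ agonist GW610742 was described here for genes outside lipid oxidation, from 12 of the 24 arrays of the series. The arrays were those titled as 3T3-L1 cells treated with GW610742 (6) and those titled as DMSO controls normalized together with them (6), and the 13718 probes with a value in all 12 arrays were used, of 13964 in the table. 3T3-L1 is a mouse fibroblast line that turns into fat cells after hormonal induction. At day 11 after induction the medium of the GW610742 cultures was changed to one with insulin and the agonist, and that of the DMSO cultures to one with insulin and the solvent, for 48 h in each case. All cultures had received the same inducing mixture of dexamethasone, isobutylmethylxanthine and insulin, and all belong to a single cell line that is a model of the adipocyte rather than adipose tissue. The labels give a dose of 1 µM, whereas the methods name this dose and a lower one without saying which was used for the arrays.

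PPARδ is a nuclear receptor that binds DNA together with the retinoid X receptor and is switched on by fatty acids and by synthetic ligands. It is best known for raising the expression of genes that burn fat in muscle, liver and adipose tissue. Mature adipocytes have largely left the cell cycle, but cultures of 3T3-L1 cells also hold cells that did not become adipocytes. In dividing cells, histone mRNA is made in S phase and the genes of mitosis and cytokinesis are switched on together in G2 and M phase, and many promoters of both kinds carry a CCAAT box.

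Each value is a log2 value after variance stabilization and quantile normalization, so a difference of 1 is close to a doubling of the transcript. The log2 fold change is the GW610742 mean minus the DMSO mean, with its standard error (SE), and a probe was said to rise or fall at an adjusted p under 0.05 in the test of limma over all probes. The arrays were independent hybridizations, and a p covers only how these arrays vary, which may be technical, and their number limits the precision. A shift is the value of an array minus the mean of the DMSO arrays for the same probe. Fewer cells of a type and less RNA per cell cannot be told apart in such bulk samples.

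The cultures carried the transcripts of adipocytes. Adipoq, the adipocyte hormone adiponectin, averaged 13.22 over the 12 arrays and Lpl, lipoprotein lipase, 14.22. Ppard, the receptor itself, had 10.05, 10.14 and 10.23 (lowest, median and highest array) with GW610742 and 9.94, 10.04 and 10.19 with DMSO, and did not pass (log2 fold change 0.08, SE 0.05, adjusted p = 0.298). Angptl4, a secreted inhibitor of lipoprotein lipase and a textbook PPAR target, had 13.86, 13.93 and 14.03 with GW610742, against 13.08, 13.14 and 13.21 with DMSO. Among the genes that rose by over 0.5 Angptl4 was the most even, with shifts of 0.72 to 0.88 in the 6 GW610742 arrays.

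The markers of adipocytes varied among the arrays of both groups. Over 13 measured marker genes, the median shift was 0.32, 0.43, 0.42, 0.46, 0.04 and -0.28 in GW610742 replicates 1 to 6, and 0.18, 0.19, 0.60, -0.28, -0.48 and -0.34 in DMSO replicates 1 to 6. Levels were thus high in replicates 1 to 4 with GW610742 and 1 to 3 with DMSO. Of the 13 genes 2 rose and none fell, with a median log2 fold change of 0.29, and the count of rises was 7 without DMSO replicate 3, 4 without GW610742 replicate 6, 3 without DMSO replicate 2 and 1 or 2 without any other array. Of 24 markers of preadipocytes and fibroblasts 1 rose and 5 fell (4.17% and 20.8%, beside 8.26% and 8.69% of all genes). Among the falls were Gata2, a repressor of adipocyte formation, with -0.30 (SE 0.04, adjusted p = 0.000276), Twist1 with -0.19 (adjusted p = 0.0159) and Mgp, matrix Gla protein, with -0.25 (adjusted p = 0.00715), while S100a4, a fibroblast marker, rose with 0.36 (adjusted p = 0.00155). Ebf1 fell with -0.20 on its brightest probe, but a further probe rose with 0.27 (adjusted p = 0.00281). A further probe of Sox9, another marker of this list, rose with 0.20 (adjusted p = 0.0229). The part of these markers in the other results was not tested.

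The sequences upstream of the histone genes that rose most are shown first, because H2A genes and their H2B neighbours share short motifs in them. They are the 150 bases before the annotated start, in the 5′ to 3′ direction of the gene, from RefSeq on build GRCm38.p6, and capitals mark CCAAT and its reverse complement ATTGG as well as TATAAA. The stretches lie at chr13:21787249-21787398 for H2ac22 (minus strand), chr13:22035644-22035793 for H2ac12 (minus), chr13:23574231-23574380 for H2ac7 (plus) and chr13:21833476-21833625 for H2ac24 (minus).
H2ac22: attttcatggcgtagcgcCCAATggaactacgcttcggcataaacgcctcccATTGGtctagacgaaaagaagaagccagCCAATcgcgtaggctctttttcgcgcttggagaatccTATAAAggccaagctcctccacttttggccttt
H2ac12: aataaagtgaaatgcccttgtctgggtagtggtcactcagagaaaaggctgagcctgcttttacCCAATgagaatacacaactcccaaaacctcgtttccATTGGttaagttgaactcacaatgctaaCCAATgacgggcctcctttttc
H2ac7: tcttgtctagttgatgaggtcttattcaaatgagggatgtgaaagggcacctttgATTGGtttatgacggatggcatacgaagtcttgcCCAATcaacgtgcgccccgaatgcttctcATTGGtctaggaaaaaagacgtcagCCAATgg
H2ac24: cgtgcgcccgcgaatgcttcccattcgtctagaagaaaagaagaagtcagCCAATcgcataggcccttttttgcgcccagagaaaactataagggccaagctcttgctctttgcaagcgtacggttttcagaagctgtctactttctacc

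CCAAT, on either strand, was present in the promoter windows of all 13 measured H2A genes, against 37.4% of the 32851 windows of the RefSeq table (250 bases before to 50 after a start). It was also present in 8 of 8 windows of H2B genes. TATAAA was found in 61.5% of the H2A and 37.5% of the H2B windows, against 13.6% of all windows. The motif is thus common to both histone classes, whose response to the agonist differed, and a match is a description of the letters only.

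Genes of the H2A histones rose with GW610742, whereas no H2B gene passed and 1 of 15 H3 and H4 genes did. H2A and H2B form the dimers that flank the H3 and H4 core of the nucleosome. Of 13 measured H2A genes 10 rose and 1 fell on their brightest probe, where 8.26% of the 8289 genes of the array data rose and 8.69% fell. The median log2 fold change was 0.51 for H2A, -0.05 for the 9 H2B genes and 0.12 for the H3 and H4 genes, beside -0.01 for all genes. The H2A genes are near-identical copies, and since probe sequences were not used here, a probe may have measured several of them.

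H2ac22 had 10.00, 10.24 and 11.58 (lowest, median and highest) with GW610742 and 8.78, 8.90 and 9.43 with DMSO. Every GW610742 array lay above every DMSO array, and the log2 fold change was 1.43 (SE 0.20, adjusted p = 0.000205). The shifts were 1.46, 2.57, 1.19, 0.99, 1.11 and 1.27 in GW610742 replicates 1 to 6, so replicate 2 stood far above the other 5. Without that array the gene still passed. Among the DMSO arrays replicates 4 and 6 were the highest, with shifts of 0.26 and 0.41, against -0.24 to -0.10 in the other 4.

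H2ac12 had 9.50, 9.71 and 11.02 with GW610742 and 8.37, 8.50 and 9.13 with DMSO. Its log2 fold change was 1.28 (SE 0.20, adjusted p = 0.000535), and a second probe gave 1.12. H2ac7 had 11.41, 11.68 and 12.95 with GW610742 and 10.36, 10.69 and 11.16 with DMSO, and a log2 fold change of 1.14 (adjusted p = 0.00117). In both genes the 2 groups did not overlap and replicate 2 was again the highest array.

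In the other H2A genes that rose, replicate 2 was likewise the highest GW610742 array and replicate 6 the highest DMSO array. H2ac24 had 11.66, 11.96 and 13.14 with GW610742 and 10.68, 10.88 and 11.37 with DMSO (log2 fold change 1.10), and H2ac15 had 9.35, 9.64 and 10.98 with GW610742 and 8.44, 8.65 and 9.22 with DMSO (1.07). H2ac11 had a log2 fold change of 0.75, H2ac20 of 0.51, H2ac13 of 0.47, H2ac21 of 0.45 and H2ac10 of 0.28, with adjusted p values of 0.0020 to 0.0201. All 10 rises kept the call without GW610742 replicate 2, and the count was 10 with each of the 12 arrays left out. Further probes of H2ac10 and H2ac13 gave 1.28 each, and a second probe of H2ac20 did not pass (-0.06, adjusted p = 0.541).

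Some H2A genes did not share in this. H2ac1, a testis variant, had 6.62, 6.71 and 6.76 with GW610742 and 6.71, 6.83 and 6.98 with DMSO. Its fall of -0.15 had an adjusted p of 0.0441, and it did not pass in 10 of the 12 fits that left out an array, nor with array weights or with the replicate number as a block. H2ac18 and H2ac19, which code for the same protein and lie next to each other on chromosome 3, had -0.15 each (adjusted p = 0.167 and 0.113).

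H2A and H2B genes of the same number that lie head to head gave different values, a comparison chosen after the values were seen. The starts of H2ac12 and H2bc12 are 178 bases apart on opposite strands, so that the sequence printed for H2ac12 lies between them, and their log2 fold changes were 1.28 and -0.09. For H2ac7 and H2bc7, 174 bases apart, they were 1.14 and -0.09. For H2ac15 and H2bc15, 164 bases apart, they were 1.07 and 0.09. For H2ac11 and H2bc11, 249 bases apart, they were 0.75 and -0.05. None of these H2B genes passed (adjusted p of 0.234 to 0.598). Whether the H2B probes report the same RNA form as the H2A probes was not tested.

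Among the other histones, H3c14 rose with 0.17 (SE 0.05, adjusted p = 0.0288) and the other 14 H3 and H4 genes did not pass; H3c14 lost its call in 6 of the 12 fits that left out an array. The linker histone H1f2 had -0.14 (adjusted p = 0.0976). H3f3a, which codes for the replacement histone H3.3 that is made throughout the cell cycle, fell with -0.21 (adjusted p = 0.00573). It was the only 1 of 7 measured replacement histones to pass on the brightest probe. A further probe of H3f3a did not pass (-0.13, adjusted p = 0.0855). Further probes fell for Macroh2a1 (-0.26, adjusted p = 0.00308) and H2aj (-0.13, adjusted p = 0.0497), and another of Macroh2a1 did not pass (-0.04).

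**Figure D1:**
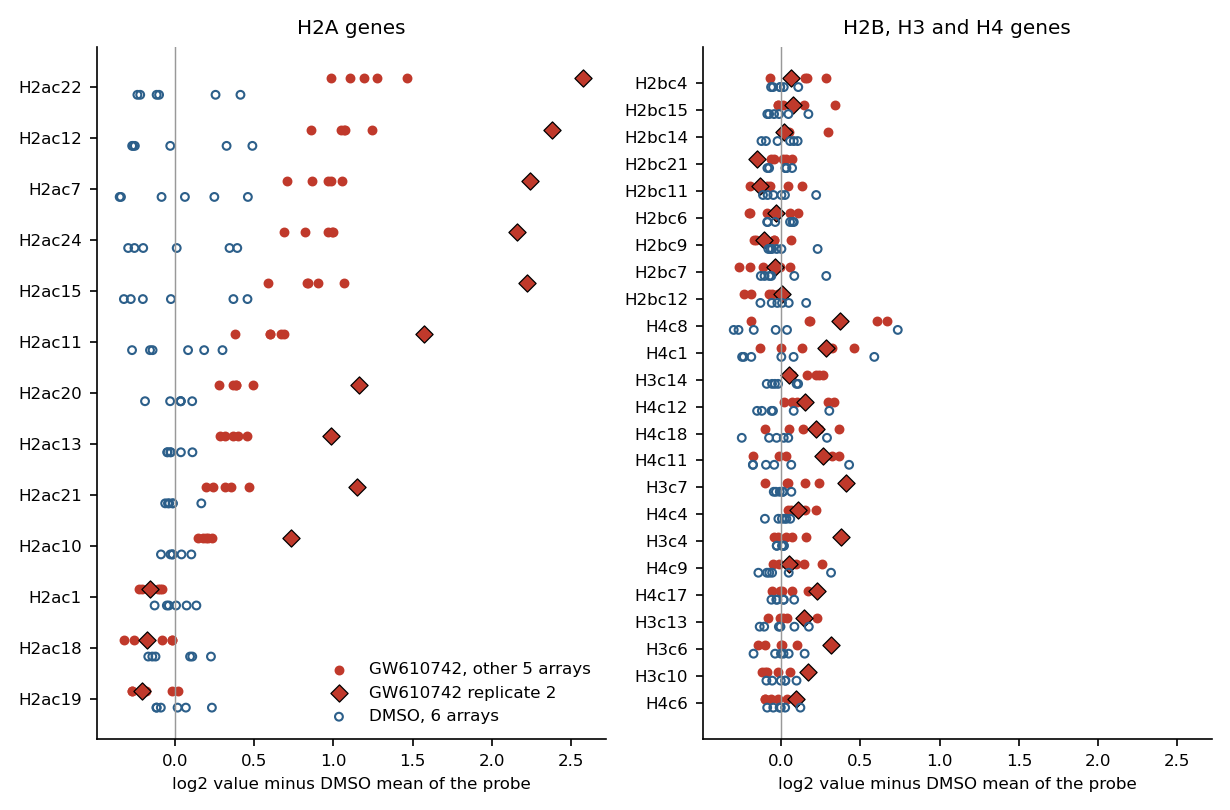
Log2 value of each array minus the DMSO mean of the probe (x axis) for each measured H2A gene (left) and each H2B, H3 and H4 gene (right). Filled red marks above each line of the gene are GW610742 arrays, with replicate 2 as a diamond, and open blue circles are DMSO arrays; in 10 H2A genes every GW610742 array lies above every DMSO array, and the diamond lies far to the right, while the groups of the H2B, H3 and H4 genes overlap.

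Genes of mitosis and cytokinesis were the second group to rise. Of 37 measured genes 17 rose and 1 fell, with a median log2 fold change of 0.21. Prc1, a crosslinker of the midzone microtubules, had 8.12, 8.33 and 9.42 with GW610742 and 7.27, 7.36 and 7.89 with DMSO (log2 fold change 1.01, SE 0.16, adjusted p = 0.000757). Anln, the scaffold of the cleavage furrow, had 7.60, 7.86 and 9.05 with GW610742 and 6.87, 7.13 and 7.34 with DMSO (0.91, adjusted p = 0.00224). In both genes the groups did not overlap, and replicate 2 was about 1 log2 unit above the other GW610742 arrays.

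Birc5, which helps to separate chromosomes, had 7.47, 7.68 and 8.71 with GW610742 and 6.85, 7.05 and 7.37 with DMSO (0.74, adjusted p = 0.00403). Plk1, the polo-like kinase of mitosis, had 7.47, 7.53 and 8.45 with GW610742 and 6.94, 7.02 and 7.25 with DMSO (0.62, adjusted p = 0.00333). Both again showed no overlap and their highest value in replicate 2. Cenpa, the histone variant of the centromere, had 9.41, 9.67 and 10.96 with GW610742 and 8.62, 8.85 and 9.34 with DMSO (0.91, adjusted p = 0.00506). Of 20 further genes of the centromere and kinetochore 4 rose, Cenpa, Cenpn (0.18), Cenpk (0.17) and Hjurp (0.16), and the count was 2 without GW610742 replicate 1 or without replicate 2.

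The sequence TTTGAA, known in human promoters as the cell cycle homology element that holds mitotic genes silent outside G2 and M phase, was searched for on both strands. It was present in 65.7% of the 35 windows of mitosis genes (31 of the 37 genes have a window) and in 11.5% of the 52 windows of DNA replication genes, against 17.9% of all windows. It was also present in 61.5% of the H2A windows and in 6 of 8 windows of H2B genes, a list in which no gene passed. The sequence was thus not confined to lists with rises. To show where it lies, 30 bases around it are given for the 4 called mitosis genes with the smallest adjusted p that hold it, with TTTGAA and its reverse complement in capitals. They are at chr7:80294434-80294463 for Prc1 (plus strand), chr9:22389168-22389197 for Anln (minus), chr7:122159453-122159482 for Plk1 (plus) and chr4:118437344-118437373 for Cdc20 (minus) of GRCm38.p6, each close to an annotated start.
Prc1: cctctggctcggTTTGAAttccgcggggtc
Anln: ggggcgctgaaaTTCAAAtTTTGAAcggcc
Plk1: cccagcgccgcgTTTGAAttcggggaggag
Cdc20: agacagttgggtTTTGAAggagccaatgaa

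Cdc20, which activates the anaphase promoting complex, had 7.85, 8.05 and 8.89 with GW610742 and 7.38, 7.55 and 7.88 with DMSO (0.55, adjusted p = 0.00894). Cdca8, a subunit of the chromosomal passenger complex together with Birc5, had 7.57, 7.68 and 8.48 with GW610742 and 7.19, 7.31 and 7.44 with DMSO (0.47, adjusted p = 0.00927). Both genes were added to the named genes with their values known. Kif23, a kinesin of the midbody, was at odds between probes. Its brightest probe had 11.52, 11.61 and 11.84 with GW610742 and 12.003, 12.13 and 12.43 with DMSO, a fall of -0.51 (SE 0.07, adjusted p = 0.000157) that was even over the arrays, while another probe rose with 0.59 (adjusted p = 0.0031).

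In DNA replication 12 of 48 genes rose and none fell, with a median log2 fold change of 0.06. Uhrf1, which couples DNA methylation to replication, had 9.17, 9.33 and 10.18 with GW610742 and 8.73, 8.83 and 8.99 with DMSO (0.61, adjusted p = 0.00267). Mcm5, a subunit of the replicative helicase, had 8.49, 8.64 and 9.40 with GW610742 and 8.04, 8.15 and 8.43 with DMSO (0.53, adjusted p = 0.0058). Cdt1, which licenses origins, rose with 0.36 and Mcm10 with 0.41, and their groups did not overlap. Among the cyclins and inhibitors of G1, 3 of 21 rose and 1 fell: Ccnd2, a D-type cyclin, had 0.30 (adjusted p = 0.000762), Gadd45g, a gene of growth arrest, had 0.16 (adjusted p = 0.0358) and Ccng2 had 0.16 (adjusted p = 0.0441), while the related Gadd45a fell with -0.26 (adjusted p = 0.0422). The rises numbered 5 without GW610742 replicate 3 and 1 without DMSO replicate 5 or without GW610742 replicate 4 or 6, and the call of Gadd45a was lost in 9 of the 12 fits that left out an array.

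In these lists 1 array gave most of the highest values. GW610742 replicate 2 was the highest GW610742 array in 10 of 13 H2A genes, 33 of 37 mitosis genes and 34 of 48 replication genes, against 18.2% of all genes. The median shift over the mitosis genes was 0.65 in replicate 2 and 0.07 to 0.17 in the other 5 GW610742 arrays, and -0.08 to 0.07 in the DMSO arrays. Without replicate 2 the mitosis list again had 17 rises, 16 of them shared with the full set, and its median was 0.13. The count was more sensitive to the DMSO arrays and to the variance prior. It was 10 without DMSO replicate 1, 11 without replicate 3 and 10 without replicate 5, 10 with dim probes left out, and 7 with a robust prior that follows the mean value. DMSO replicates 4 and 6 were the 2 highest DMSO arrays in 14 of the 17 mitosis genes that rose and in 6 of the 10 H2A genes, beside 10.9% of all genes that rose and 7.26% of all genes.

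**Figure D2:**
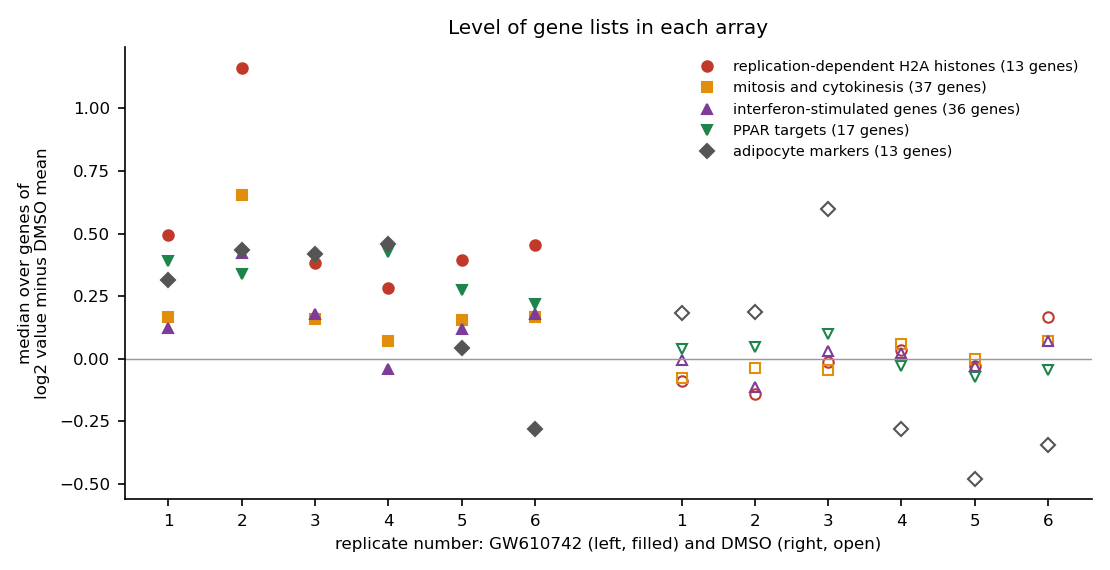
Median over the genes of 5 lists of the log2 value minus the DMSO mean (y axis) in each array, with GW610742 replicates at the left (filled) and DMSO replicates at the right (open). The H2A, mitosis and interferon lists peak in GW610742 replicate 2 (1.16, 0.65 and 0.42), PPAR targets lie at 0.22 to 0.43 in all GW610742 arrays, and adipocyte markers range from -0.28 to 0.46 with GW610742 and from -0.48 to 0.60 with DMSO.

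Interferon-stimulated genes shared this pattern. Of 36 measured genes 11 rose and 1 fell, with a median of 0.16, and replicate 2 was the highest GW610742 array in 25 of them. Without GW610742 replicate 4 the rises numbered 18. Ifi27l2a, an interferon-induced membrane protein, had 10.34, 11.10 and 11.51 with GW610742 and 9.43, 9.73 and 10.77 with DMSO (1.16, SE 0.21, adjusted p = 0.00137), with 4 of 6 GW610742 arrays above every DMSO array. Its highest DMSO array was replicate 3, and its lowest GW610742 array replicate 6, as with the adipocyte markers. Parp14 had 0.34 (adjusted p = 0.00325), Trim25, a ubiquitin ligase of RNA sensing, 0.26 (adjusted p = 0.00261), and Stat2, the interferon signal transducer, 0.27 (adjusted p = 0.00113), each with no overlap of the groups. Ifitm2 fell with -0.23 (adjusted p = 0.00101).

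In RNA processing the changes were few and ran in both directions. Of 89 measured splicing factors 9 rose and 6 fell, with a median of 0.01, shares of 10.1% and 6.74% beside the 8.26% and 8.69% of all genes. Of 23 proteins of the snRNPs and of the LSm rings 4 rose and 1 fell. Lsm8, the subunit that sets the nuclear LSm ring bound to U6 RNA apart from the cytoplasmic ring, had 12.67, 12.78 and 12.9997 with GW610742 and 10.98, 11.34 and 12.32 with DMSO. All GW610742 arrays lay above the DMSO arrays, the log2 fold change was 1.26 (SE 0.18, adjusted p = 0.000306), and the GW610742 shifts, 1.12 to 1.45, were nearly as even as those of Angptl4. The DMSO arrays were not even: replicates 4 and 6 had 12.32 and 12.20, against 10.98 to 11.51 in the other 4.

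Lsm6, which is shared by both rings, rose with 0.32 (SE 0.06, adjusted p = 0.00234), and Lsm1, which defines the cytoplasmic ring that acts in mRNA decay, had 11.38, 11.53 and 11.59 with GW610742 and 11.58, 11.66 and 11.72 with DMSO. The fall of Lsm1, -0.14 (adjusted p = 0.0346), did not pass in 6 of the 12 fits that left out an array. Snrnp200, the helicase that unwinds U4 from U6, rose with 0.22 (adjusted p = 0.00846).

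Clk1, a kinase that phosphorylates SR proteins and so moves them into the spliceosome, had the largest fall of all genes. It had 7.90, 8.13 and 8.29 with GW610742 and 8.63, 8.92 and 9.01 with DMSO, a log2 fold change of -0.75 (SE 0.07, adjusted p = 1.23e-05). No array stood apart, and the farthest GW610742 array held 21.5% of the summed shift, where equal shares would be 16.7%. The other 7 measured kinases of SR proteins did not pass on their brightest probe. Of Clk4, another such kinase, a further probe fell with -0.35 (SE 0.05, adjusted p = 0.000432). Yet another probe of Clk4 did not pass (-0.01, adjusted p = 0.89). Among the splicing factors Khdrbs1, also known as Sam68, fell with -0.27 (adjusted p = 0.000892) and Crnkl1 with -0.24 (adjusted p = 0.00244), and Srsf2, an SR protein, rose with 0.20 (adjusted p = 0.00836), Celf1, which binds GU-rich RNA, with 0.25 (adjusted p = 0.00894) and Hnrnpul2 with 0.22 (adjusted p = 0.0056). Cirbp, an RNA-binding protein induced by mild cold, fell with -0.49 (SE 0.07, adjusted p = 0.000232) and had 8.94, 9.29 and 9.44 with GW610742 and 9.58, 9.76 and 9.86 with DMSO, replicate 2 being the lowest. Ddx21, a helicase of ribosomal RNA synthesis, rose with 0.37 (adjusted p = 0.000205) and Fxr2, a relative of the fragile X protein, with 0.36 (adjusted p = 0.000113). Both values are of the brightest probe. A further probe of each had the opposite sign and did not pass, with -0.14 for Ddx21 (adjusted p = 0.391) and -0.10 for Fxr2 (adjusted p = 0.197).

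In signalling, more called genes fell than rose in the Hippo, cyclic AMP and calcium, and Wnt lists. The shares of falls were 27.3%, 16.7% and 19.4%, beside 8.69% of all genes. The shares of rises were 9.09%, 5.56% and 9.68%, beside 8.26% of all genes. The Hippo pathway holds the coactivators YAP and TAZ out of the nucleus. Of its 22 measured genes 2 rose and 6 fell, with a median of -0.08. Yap1 had 9.69, 9.90 and 9.95 with GW610742 and 10.24, 10.32 and 10.45 with DMSO, with no overlap and a log2 fold change of -0.48 (SE 0.05, adjusted p = 2.81e-05). Wwtr1, which codes for TAZ, went the other way with 0.24 (adjusted p = 0.019) on its brightest probe. A further probe of Wwtr1 had the opposite sign and did not pass (-0.12, adjusted p = 0.0609). Vgll3, another partner of TEAD factors, fell with -0.30 (adjusted p = 0.00858), and Amotl2, an angiomotin that binds YAP, with -0.22 (adjusted p = 0.00846). The falls numbered 3 without DMSO replicate 4 and 4 to 6 without any other array.

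Of 54 genes of cyclic AMP and calcium signalling 3 rose and 9 fell, and the falls numbered 5 without DMSO replicate 4 or 5 or without GW610742 replicate 1 or 2. Orai1, the pore of store-operated calcium entry, had 8.69, 8.74 and 8.90 with GW610742 and 8.91, 9.04 and 9.16 with DMSO (-0.28, adjusted p = 0.0014). Rgs2, which turns off Gq proteins, fell with -0.23 (adjusted p = 0.00257), Gnaq, the Gq subunit itself, with -0.18 (adjusted p = 0.0159) and Rgs3 with -0.19, while Calm2, a calmodulin gene, rose with 0.22 (adjusted p = 0.00738). These values are of the brightest probe. A further probe of Rgs2 fell (-0.20, adjusted p = 0.00858). Further probes of Gnaq (-0.008, adjusted p = 0.926), Rgs3 (-0.05, adjusted p = 0.427) and Calm2 (0.005 and 0.18) did not pass. Tbxa2r, the thromboxane receptor that couples to Gq, had 7.39, 7.47 and 7.54 with GW610742 and 7.79, 7.85 and 7.92 with DMSO (-0.38, SE 0.04, adjusted p = 2.98e-05). It was among the 10 falls with the smallest adjusted p, and the groups were more than 0.2 apart.

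Of 31 Wnt genes 3 rose and 6 fell. The median log2 fold change of the Wnt list was 0.03, with 17 genes above 0, so the list as a whole did not shift down. The falls included Ctnnbip1, an inhibitor of β-catenin, with -0.22 (adjusted p = 0.00466), Axin1, the scaffold of its destruction complex, with -0.17 (adjusted p = 0.00764) and Kremen1, a receptor of the Wnt antagonist Dkk1, with -0.21 (adjusted p = 0.0148). The other 3 were Fzd2, a Wnt receptor, with -0.21 (adjusted p = 0.0219), Ccn4, a secreted Wnt target, with -0.19 (adjusted p = 0.0169) and Tle1, a corepressor, with -0.15 (adjusted p = 0.0484), so inhibitors and a receptor fell alike. Pygo2, a coactivator of β-catenin, rose with 0.21 (adjusted p = 0.00234). Of 32 genes of TGF-β and BMP signalling 4 rose and 1 fell (12.5% and 3.13%). There were 1 or 2 rises left without DMSO replicate 5 or 6 or without GW610742 replicate 1, 5 or 6. Ltbp1, which stores latent TGF-β in the matrix, had 10.15, 10.21 and 10.28 with GW610742 and 9.69, 9.84 and 10.09 with DMSO (0.35, adjusted p = 0.000964), and the transcriptional corepressor Ski fell with -0.26 (adjusted p = 0.00234).

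In MAP kinase signalling 7 of 46 genes rose and 2 fell (15.2% and 4.35%, beside 8.26% and 8.69% of all genes). The rises numbered 3 without DMSO replicate 4 and 4 without DMSO replicate 1, 3 or 5 or without GW610742 replicate 1 or 4. Map3k7, the kinase TAK1, had 7.16, 7.25 and 7.31 with GW610742 and 6.84, 6.9997 and 7.05 with DMSO (0.26, adjusted p = 0.00112), and Map2k1, the kinase MEK1, rose with 0.23 (adjusted p = 0.0103). Of the MAP kinase phosphatases, Dusp3 fell with -0.26 (adjusted p = 0.00304) and Dusp1 with -0.20 (adjusted p = 0.01). Dusp6, Dusp4 and Dusp19 of the same family rose, and Dusp6, a phosphatase of ERK, had 8.005, 8.11 and 9.13 with GW610742 and 7.68, 7.81 and 7.94 with DMSO (0.45, adjusted p = 0.0312), with 48.6% of its summed shift in replicate 2. Of 34 genes of insulin signalling 2 rose and none fell, Eif4ebp1, the translation repressor under mTOR, with 0.27 (adjusted p = 0.00234) and Ptpn1, a phosphatase of the insulin receptor, with 0.23 (adjusted p = 0.0076). Among 34 genes of NF-κB and the chemokines 6 rose and 5 fell (17.6% and 14.7%). There were 3 rises without DMSO replicate 1, 2, 3 or 5 or without GW610742 replicate 3 or 6. There were 3 falls without DMSO replicate 5 or 6. Ccl8, a monocyte chemokine, had 9.45, 9.51 and 9.80 with GW610742 and 8.73, 8.93 and 9.18 with DMSO (0.61, SE 0.08, adjusted p = 0.000138). Traf1 rose with 0.42 but with 41.6% of the summed shift in replicate 2, and Birc2, a ubiquitin ligase of the TNF receptor, and Tlr2 fell with -0.26 and -0.23. A further probe of Birc2 did not pass (-0.05, adjusted p = 0.545). Serpina3n, an inhibitor of proteases induced in the acute phase, had 8.44, 8.72 and 8.83 with GW610742 and 7.83, 7.94 and 8.14 with DMSO (0.74, SE 0.06, adjusted p = 1.95e-06), and its groups were clearly apart.

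Immediate early genes did not rise. Of 19 measured genes none rose and 4 fell, and the count of falls was 4 with each array left out. Srf, the factor that binds the serum response element, had 9.95, 9.99 and 10.09 with GW610742 and 10.26, 10.37 and 10.56 with DMSO (-0.39, SE 0.06, adjusted p = 0.000265). Klf4 fell with -0.30 (adjusted p = 0.00103), Klf2 with -0.20 (adjusted p = 0.00792) and Jun with -0.24 (adjusted p = 0.00801). The unfolded protein response was split: of 28 genes 4 rose and 5 fell. Atf4, the factor translated under stress, had 13.12, 13.20 and 13.32 with GW610742 and 12.82, 12.97 and 13.12 with DMSO (0.24, adjusted p = 0.00514), and Hspa5, the chaperone BiP, rose with 0.19 (adjusted p = 0.00894). Ddit3, which codes for CHOP and is a target of ATF4, fell with -0.34 (SE 0.08, adjusted p = 0.00734), as did Sesn2 with -0.17 (adjusted p = 0.0108) and Sdf2l1 with -0.24 (adjusted p = 0.00368). Further probes of Atf4 (0.06, adjusted p = 0.552) and Ddit3 (-0.14, adjusted p = 0.0980) had the same sign and did not pass. The largest falls were those of Chac1 and Trib3, which like Ddit3 are known targets of ATF4. Chac1 had 11.16, 11.33 and 11.44 with GW610742 and 11.30, 11.72 and 12.21 with DMSO (-0.44, SE 0.13, adjusted p = 0.0296), and Trib3 had 10.98, 11.13 and 11.36 with GW610742 and 11.23, 11.51 and 11.90 with DMSO (-0.41, SE 0.10, adjusted p = 0.0138). In both the groups overlapped, and 2 and 4 GW610742 arrays lay below every DMSO array. Without DMSO replicate 6 the list had 2 rises.

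**Figure D3:**
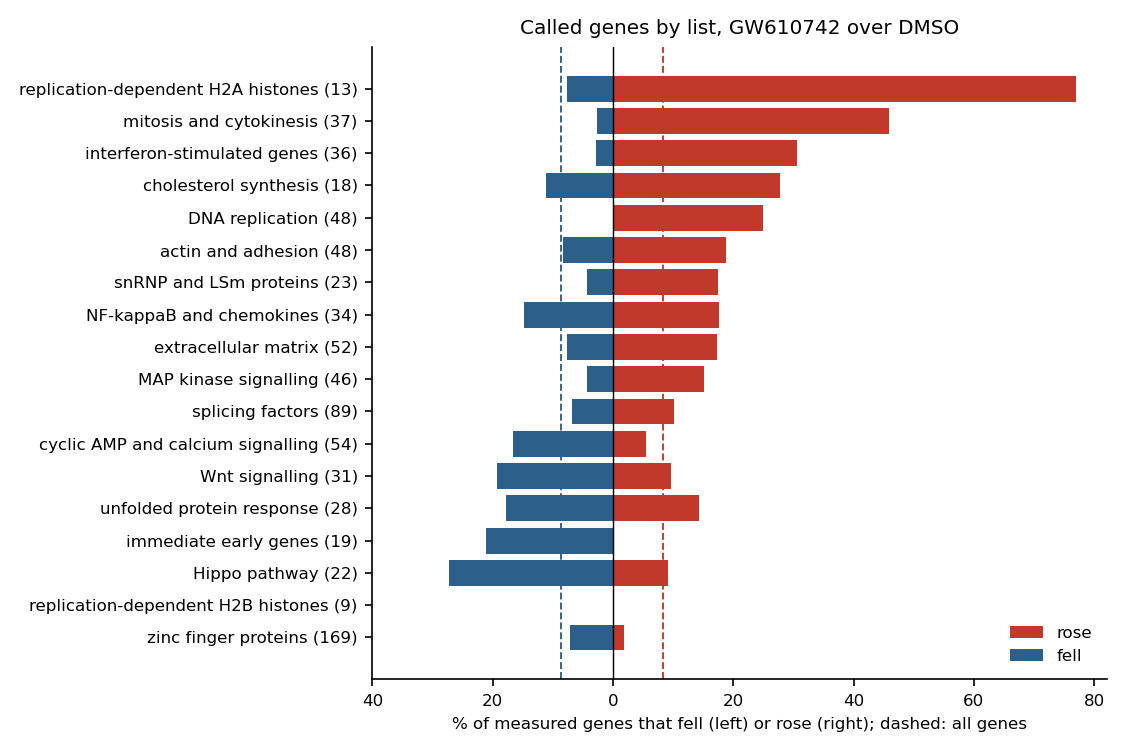
Share of the measured genes of 18 lists that rose (red, to the right) or fell (blue, to the left) with GW610742 over DMSO, in % (x axis), with the number of measured genes in brackets and the shares over all genes as dashed lines. The H2A list has 76.9% rises and the mitosis list 45.9%, the H2B list has none, and the Hippo list has the highest share of falls among those drawn, 27.3%.

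Falls were as frequent as rises but smaller. In all, 1124 probes rose (8.19%) and 1225 fell (8.93%), which gave 685 and 720 genes. The median log2 fold change was 0.22 among the rises and -0.18 among the falls. A size over 0.3 was reached by 248 rises and 96 falls, over 0.5 by 75 rises and 5 falls, and over 0.75 by 26 rises and 1 fall, that of Clk1.

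The detoxification enzymes held several of the larger falls. Of 55 measured genes 5 rose and 8 fell (9.09% and 14.5%, beside 8.26% and 8.69% of all genes). The falls numbered 6 to 11 without 1 array. The rises numbered 9 without DMSO replicate 3 and 3 without DMSO replicate 2, 4, 5 or 6 or without GW610742 replicate 1, 3 or 4. Sult1a1, a sulfotransferase of phenols, had 9.44, 9.63 and 9.81 with GW610742 and 9.87, 10.18 and 10.78 with DMSO (-0.61, SE 0.12, adjusted p = 0.00293). Its groups lay close together, and the DMSO arrays spread over 0.9. Inmt, a methyltransferase of indoles, had 7.44, 7.48 and 7.58 with GW610742 and 7.88, 7.99 and 8.14 with DMSO (-0.50, SE 0.05, adjusted p = 7.73e-06), and both groups were tight.

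Ugt1a6b, a glucuronosyltransferase, fell with -0.36 (adjusted p = 0.000892) and Ephx1, the microsomal epoxide hydrolase, with -0.25 (adjusted p = 0.00333). The soluble epoxide hydrolase Ephx2 went up, with 9.81, 10.05 and 10.32 with GW610742 and 9.27, 9.33 and 9.68 with DMSO (0.66, SE 0.08, adjusted p = 0.000106), as did Cyp1b1 with 0.34 (adjusted p = 0.000535).

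Other falls lay outside a common pathway. Izumo4, a member of a family named for a sperm protein, had 7.73, 7.80 and 7.92 with GW610742 and 8.17, 8.34 and 8.39 with DMSO (-0.50, SE 0.05, adjusted p = 7.73e-06), and a second probe gave -0.45. Mfap5, a microfibril protein, had 7.82, 7.89 and 8.23 with GW610742 and 8.12, 8.49 and 8.65 with DMSO (-0.50, adjusted p = 0.000762), with 5 of 6 GW610742 arrays below every DMSO array. Lrrn4cl fell with -0.46, Tinag, a basement membrane antigen, with -0.44, Entpd2, an ectonucleotidase, with -0.42, Slc10a6, a carrier of steroid sulfates, with -0.41, Rassf2 with -0.39, Tmem9 with -0.36 and Yif1b with -0.29, each with no overlap between the groups. Further probes of Lrrn4cl (-0.28), Tinag (-0.24) and Yif1b (-0.23) fell, while that of Tmem9 did not pass (-0.09, adjusted p = 0.268). Mest, an imprinted gene that is high in expanding adipose tissue, fell with -0.32 (adjusted p = 0.00144) on its brightest probe and with -0.26 and -0.19 on further probes.

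In the zinc finger family, 12 of 169 genes fell and 3 rose, shares of 7.10% and 1.78%, both below those of all genes, and 7 fell without DMSO replicate 4. Zfp608, which fell with -0.29 (SE 0.04, adjusted p = 0.000248), had 8.44, 8.57 and 8.59 with GW610742 and 8.79, 8.81 and 8.92 with DMSO. Further, dimmer probes of Zfp608 did not pass, with 0.004 and 0.04. Solute carriers were close to the background, with 11 rises and 14 falls among 134.

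Genes of the matrix, the cytoskeleton and chromatin changed in both directions, with shares of falls close to that of all genes. Of 52 genes of the extracellular matrix 9 rose and 4 fell. Hspg2, the basement membrane proteoglycan perlecan, had 10.82, 11.03 and 11.17 with GW610742 and 10.36, 10.60 and 10.80 with DMSO (0.43, SE 0.07, adjusted p = 0.00108), Tnc, tenascin C, rose with 0.43 and Vcan, versican, with 0.37. Further probes of Hspg2 (0.51) and Tnc (0.24) rose, while that of Vcan did not pass (0.02, adjusted p = 0.80). Of 48 genes of actin and adhesion 9 rose and 4 fell. Flna, the actin crosslinker filamin A, had 9.83, 9.94 and 9.96 with GW610742 and 9.30, 9.50 and 9.69 with DMSO (0.41, adjusted p = 0.000204), Arpc2, a subunit of the Arp2/3 complex, rose with 0.25, and Zyx, the focal adhesion protein zyxin, and Rac1, a GTPase, fell with -0.24 and -0.23.

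Of 89 chromatin modifiers 12 rose and 7 fell (13.5% and 7.87%, beside 8.26% and 8.69% of all genes). The rises numbered 6 or 7 without any 1 of DMSO replicates 3 to 6 or GW610742 replicates 1 and 4, and the falls 3 or 4 without any 1 array other than DMSO replicates 1 and 2 and GW610742 replicate 3. Among the rises were the histone methyltransferases Setd7 (0.29, adjusted p = 0.000433) and Setd1b (0.33, adjusted p = 0.00157) and the related Kmt2e (0.31, adjusted p = 0.00164). Further even rises were those of St13, a cochaperone of Hsp70, with 9.19, 9.35 and 9.45 with GW610742 and 8.77, 8.80 and 8.91 with DMSO (0.51, SE 0.05, adjusted p = 1.44e-05), of the large ubiquitin ligase Huwe1 with 0.42 (adjusted p = 7.3e-05) and of the endocytic receptor Lrp1 with 0.52 (adjusted p = 9.66e-05). In cholesterol synthesis 5 of 18 genes rose and 2 fell, with Fdps at 0.46 (adjusted p = 0.0284), Lss at 0.34 (adjusted p = 0.0092), Sqle at 0.28 and Msmo1 at 0.26, while Cyp51 fell with -0.20 (adjusted p = 0.0137). The groups overlapped in all 4 named rises, and the list had 1 rise without DMSO replicate 4 or 5 or without GW610742 replicate 2, 3 or 4, 2 without DMSO replicate 1 or 6, and 3 without DMSO replicate 2.

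The evenness of a change was measured as the share of the summed shift of the 6 GW610742 arrays that the farthest array held, for which equal arrays would give 16.7%. Its median was 26.6% among the probes that rose and 25.9% among those that fell, and 1 in 10 rises had over 34.3%, against over 31.8% for 1 in 10 falls. The farthest array was replicate 2 in 346 of the 1124 rises and 442 of the 1225 falls, and replicate 3 in 65 and 109. In 1047 rises and 1153 falls all 6 GW610742 arrays lay on the same side of the DMSO mean. The groups did not overlap in 454 of the rises and 401 of the falls, where 6.43% of all probes had no overlap.

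Uneven rises were mostly of replicate 2. Among genes with a size over 0.3, 57 of 164 rises had more than 30% of the shift in 1 array, replicate 2 in 47 of them, but 1 of 59 falls did. Upp1, uridine phosphorylase, had the highest share among them, 49.3%, and was chosen after its values were seen. It had a shift of 2.88 in replicate 2, 0.40 to 0.70 in the other 5 GW610742 arrays and 0.37 and 0.50 in DMSO replicates 4 and 6 (log2 fold change 0.97, adjusted p = 0.0361). Sema7a, a semaphorin, had 47.9% of its shift in replicate 2 and H2ac21 42.2%. At the other end Angptl4 had 18.4%, Acaa2, a mitochondrial thiolase, 18.5%, Inmt 18.7% and Srf 19.2%. When each of the 12 arrays was left out in turn, 712 of the rises and 668 of the falls passed in every fit, and without GW610742 replicate 2 there were 913 and 851.

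**Figure D4:**
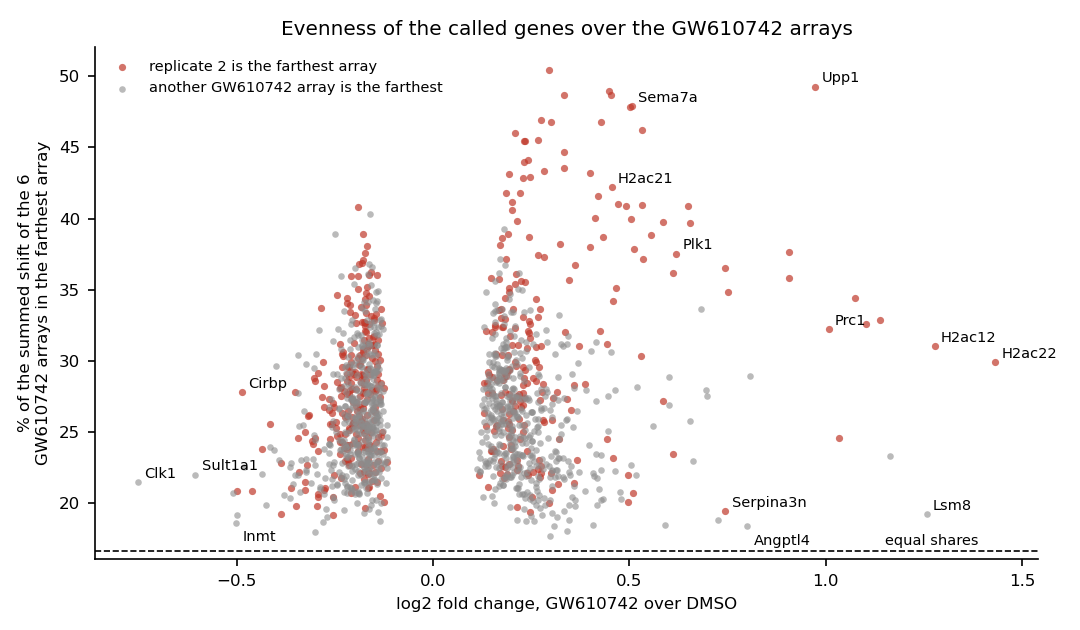
Share of the summed shift held by the farthest of the 6 GW610742 arrays, in % (y axis), against the log2 fold change of GW610742 over DMSO (x axis) for the genes that rose or fell. Red points are genes whose farthest array is replicate 2, grey points those with another array, and the dashed line marks equal shares; Sema7a (47.9%) and Upp1 lie high, Angptl4 (18.4%) and Lsm8 low, and few falls lie above 30% at a size over 0.3.

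Neighbouring genes on chromosome 6 rose together, an observation made after the values were seen. When the measured genes were placed in their RefSeq order and the median log2 fold change was taken over each run of 10 neighbours, the 14 highest of 8094 runs lay on this chromosome. The highest had a median of 0.36, against 0.16 for the highest run elsewhere, which lay in the histone cluster of chromosome 13. Up to 9 of 10 genes rose in a run, against at most 5 outside chromosome 6. In the stretch of 33 measured genes from Samd9l to Wasl, 15 rose, 3 fell and 15 did not pass.

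The rises formed 2 blocks, and of the 11 genes between them Umad1 fell and the others did not pass. The first block held Gng11, a G protein γ subunit (0.42, adjusted p = 0.00117), Bet1, a SNARE of the Golgi (0.42), Col1a2, a collagen chain (0.23), Pon2, a lactonase (0.73, adjusted p = 0.000226), and Pdk4, which inhibits pyruvate dehydrogenase and is a known PPAR target (0.48, adjusted p = 0.000327). The second ran from Tmem106b (0.30) through Gpr85 (0.25), Mdfic (0.50), the caveolin genes Cav2 (0.46) and Cav1 (0.37), St7 (0.59), Lsm8 (1.26) and Tspan12 (0.34) to Cped1 (0.34, adjusted p = 0.000125). Ing3 and Fam3c lie on either side of Cped1 and fell, with -0.17 (adjusted p = 0.0243) and -0.21 (adjusted p = 0.0161).

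Pon2 had 11.40, 11.55 and 11.64 with GW610742 and 10.56, 10.69 and 11.20 with DMSO. Its GW610742 arrays were even, with shifts of 0.58 to 0.82, and DMSO replicates 4 and 6 were the 2 highest DMSO arrays, as they were in Lsm8. This held for 8 of the 15 rises of the stretch. St7 and Mdfic had in addition their highest GW610742 value in replicate 2, whereas Pdk4 and Cped1 shared neither feature. Tspan12 (adjusted p of up to 0.107) and Col1a2 (up to 0.0610) lost their calls with some arrays left out.

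**Figure D5:**
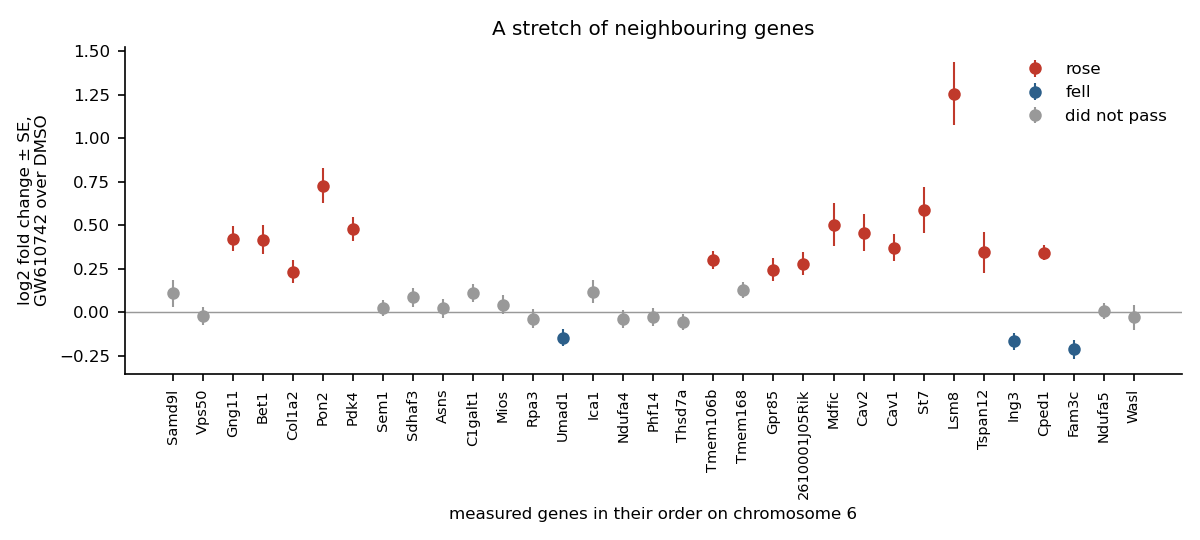
Log2 fold change of GW610742 over DMSO (y axis, bars are the SE) for 33 measured genes in their order on chromosome 6 (x axis, not to scale). Red genes rose, blue genes fell and grey genes did not pass; Lsm8 reaches 1.26, and 15 of the 33 rose.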

How the data were processed

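RNA of the cultures was hybridized to mouse WG-6 bead arrays, and whether each array had a culture of its own is not stated. The authors, with lumi, kept probes detected in at least 1 sample, applied variance stabilization and quantile normalized the arrays of this comparison together; the deposited log2 values were used as they are. Array number, not read depth, limits precision. In R 4.3.3, limma 3.58.1 (lmFit, eBayes) compared GW610742 with DMSO over 13718 probes with Benjamini-Hochberg adjustment. Symbols came from the platform annotation, updated by gene ID to RefSeq for 11949 probes; 11962 probes had 1 symbol, 4 several and 1752 none. A gene is its brightest probe. The called genes had 635 further probes, of which 176 were called the same way and 12 the opposite way. The other 447 were not called, 299 of them with the same sign. The comparison was tested on simulated data. Named genes were the 15 largest non-overlapping changes and the 10 smallest adjusted p in each direction, up to 5 called and 2 other members of each list, the histones, Ppard and Angptl4; not all are named, and neighbours on chromosome 6, Cdc20, Cdca8, Kif23, Sema7a, Mest, Upp1, Chac1, Trib3, Fzd2, Ccn4, Tle1, Dusp4, Dusp6 and Dusp19 were added after their values were known. Members and lists were chosen with earlier results of these data known. Promoters (GRCm38.p6) and the order of genes are from RefSeq. The PPARγ agonist arrays were not analysed here. Alternatives were a block for the replicate number, a variance prior that was robust, array weights, centring, cyclic loess, a filter on probes in the lower quartile of mean value, the methods' t-test, averaged probes per gene, and fits without each array.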

Additional observations from a re-analysis of the deposited data

Results flagged for a closer look

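In each group of 6 arrays, the highest or lowest value was compared with the nearest other value, and genes were singled out where this gap, as a share of the range, passed the critical value of Dixon. This was so for 42 of 342 groups of the followed genes, and 31 of the 42 were GW610742 replicate 2. Many of these genes were chosen from the same values, and those of a list tend to vary together. The count can therefore not be set against a chance rate.
Among the H2A genes, replicate 2 had 11.58 for H2ac22, 11.02 for H2ac12, 12.95 for H2ac7, 13.14 for H2ac24, 10.98 for H2ac15, 8.54 for H2ac11, 13.20 for H2ac20, 12.84 for H2ac13, 8.01 for H2ac21 and 13.11 for H2ac10, always above the other 5. In cell division and replication it had 9.42 for Prc1, 9.05 for Anln, 8.71 for Birc5, 8.45 for Plk1, 8.89 for Cdc20, 8.48 for Cdca8, 10.96 for Cenpa, 10.18 for Uhrf1, 9.40 for Mcm5, 7.68 for Mcm10 and 8.87 for Cdt1. It was also the highest in Upp1 (10.22), Sema7a (8.37), Mdfic (10.50), St7 (9.61), Cav1 (13.41), Ccl8 (9.80), Tnc (7.58), Traf1 (7.56) and Dusp6 (9.13), and the lowest in Cirbp (8.94).
Of the other GW610742 arrays, replicate 6 had a low Serpina3n (8.44) and Dusp19 (9.79) and a high Mfap5 (8.23), and replicate 4 had a low Lsm1 (11.38). Of the DMSO arrays, replicate 6 was high in H2ac21 (7.03) and Parp14 (7.95), replicate 3 in Lss (8.27), replicate 1 in S100a4 (10.91), replicate 2 in Tgfbr3 (11.24) and replicate 4 in Zfp608 (8.92), while replicate 4 was low in Ski (8.45).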

How the results depend on the processing

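The counts of 1124 rises and 1225 falls became 840 to 1152 and 832 to 1304 without 1 array, 1269 and 1030 with cyclic loess, 753 and 867 with the methods' t-test after adjustment, and 2005 and 2412 at an unadjusted p of limma under 0.05. With the replicate number as a block they were 1127 and 1136. For each array the deviations from its group mean were taken per probe, and same-numbered arrays were compared by the correlation of these deviations. It ran from -0.229 to 0.288, over 0.1 in replicates 1, 3 and 6 but not in the other 3. Only replicate 3 was closest to its own number. The arrays were therefore not treated as pairs, and whether some numbers mark a shared batch is not settled by these values. The 10 rises of the H2A list numbered 9 with dim probes left out and 9 with the robust prior, which lost H2ac21. They numbered 10 under the other alternatives counted for this list, and the t-test was not counted for any list. The 1 fall of the H2A list became 0 with array weights, with dim probes left out and with the replicate block. It was 0 to 1 without 1 array. Mitosis rises numbered 10 with dim probes left out, 7 with the robust prior and 10 to 21 without 1 array, while its 1 fall was 0 with the mean of all probes. The snRNP list had 2 falls with array weights, 0 with the replicate block and 0 to 2 without 1 array. Splicing factors had 14 rises with the mean of all probes and 3 to 8 falls with each array left out. Kif23 changed sign with the mean of its probes (0.086, adjusted p = 0.438), since its further probes had positive values. Of 162 called genes followed, 50 lost the call at least once, 39 of them with the adjusted t-test, 18 with the robust prior, 5 with the replicate block and 8 to 20 with 1 array left out. The cause of the other changes was not tested. Limits remain. There are 6 arrays per group, the dose is not settled, near-identical histone genes may share a probe, and detection values of the probes were not used here.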
